A study of Homo sapiens with 12 samples.

Results

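Exon and intron counts of cells labelled TYK-nu were compared between cisplatin and DMSO at 72 h, across functional groups of genes. Genes were taken where the 6 libraries of this comparison held at least 10 exon counts in 3 or more of them. This kept 10529 of the 17085 genes with exon counts, and 9235 of these could also be tested in intron counts. The series holds poly(A)-selected RNA-seq of cells treated for 24 or 72 h with either 15 μM cisplatin or its DMSO control, with 3 libraries in each of the 4 groups. Cisplatin is a platinum drug that crosslinks DNA, and DMSO is the solvent given alone to the controls. TYK-nu is a cell line from a high-grade serous ovarian carcinoma. The groups used were 15 μM cisplatin for 72 h and DMSO for 72 h, and the 24 h groups of the same agents entered the same fit and served to ask whether the effect differed with time. The study's methods describe cells grown in triplicate with each agent and say of experiments in general that they were independently repeated. The labels name no separate cultures for the 3 libraries of a group, so p-values measure only the spread between these samples, which may be technical.

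Exon and intron counts together summed to 26921033, 28578024 and 44713703 in the DMSO libraries at 72 h, replicates 1 to 3. They summed to 49205311, 68753262 and 31908403 in the cisplatin libraries. The deepest library was thus a cisplatin one, and the groups overlapped in depth (exact permutation test, two-sided, p = 0.2). Introns held 6.77%, 6.81% and 6.86% of the counts in DMSO and 6.87%, 7.04% and 7.17% in cisplatin. All 3 cisplatin libraries lay above the DMSO libraries in intron share, by less than 1 percentage point (exact permutation test, two-sided, p = 0.1, which is the lowest value a design of 3 and 3 libraries can reach).

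DMSO replicate 3 lay close to the cisplatin libraries. Over 9281 well-counted genes its median absolute log2 difference was 0.08 from DMSO replicate 1 and 0.09 from DMSO replicate 2, and 0.08, 0.06 and 0.07 from cisplatin replicates 1 to 3. It thus lay nearer to 2 of the cisplatin libraries than to either of the other DMSO libraries, which differed from each other by 0.09. The first principal component of the exon counts, with 41.8% of the variance, put it next to cisplatin replicate 2, with DMSO replicates 1 and 2 at one end and cisplatin replicate 1 at the other. Some counts of genes are therefore also given without this library.

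Several marker genes went against the label. In the list of serous ovarian lineage genes, 15 had exon counts in the table, and FOLR1, SOX17, EMX2, PGR and WFDC2 had 0 counts in all 6 libraries. PAX8, the lineage factor of fallopian and serous cells, had 1, 2 and 1 counts in DMSO and 1, 1 and 0 in cisplatin. The list summed to 111, 112 and 114 CPM (counts scaled to library size) in DMSO and 122, 116 and 124 CPM in cisplatin, nearly all of it from MECOM. Among 24 epithelial genes, CDH1, CLDN3, GRHL2, OVOL2 and DSP were at 0, and the list summed to between 502 and 520.4 CPM, with CLDN1 the most abundant. In the same list KRT18 had 133, 137 and 132 CPM in DMSO and 145, 150.2 and 139 CPM in cisplatin, and KRT8 and CLDN7 were counted as well, at 4.7 and 16.1 CPM per kilobase in DMSO. Among 22 mesenchymal genes, CDH2, SNAI2, PRRX1 and LOX were at 0, whereas VIM, the mesenchymal intermediate filament, reached 1608 CPM per kilobase in DMSO. The libraries are therefore called labelled TYK-nu, and no other cell type is named for them.

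Some genes that mark endothelial cells were well counted in the same libraries, and others were not. PECAM1, an adhesion molecule of endothelial junctions, had 1348, 1374 and 1435 CPM in DMSO and 1522, 1413 and 1426 CPM in cisplatin. CDH5, the cadherin of endothelial junctions, had 704, 657 and 687 CPM in DMSO and 782, 748 and 742 CPM in cisplatin. KDR, a receptor of vascular growth factor, had 243, 267 and 269.9 CPM in DMSO and 283, 279 and 288 CPM in cisplatin. PECAM1 overlapped between the groups, while CDH5 and KDR were higher in every cisplatin library. Per kilobase in DMSO, PECAM1 stood at 179, CDH5 at 114 and KDR at 41 CPM, whereas VWF, another defining endothelial gene, stood at 0.0385, ERG at 0.789 and EMCN at 0.0111. The 8 endothelial genes with exon counts in the table summed to 2479, 2484 and 2590 CPM in DMSO and 2797, 2633 and 2653 CPM in cisplatin, PECAM1 being the most abundant. Immune markers summed to between 592 and 657 CPM, nearly all from CD68, with PTPRC, CD3D and NKG7 at 0. Fibroblast markers summed to between 276 and 295 CPM, nearly all from THY1, with COL3A1, LUM and PDPN at 0. Bulk RNA cannot tell fewer cells of a type from less of their RNA per cell.

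Cisplatin joins neighbouring purines on a strand, and less often joins the strands to each other. Such lesions block replication forks, and cells remove or bypass them by nucleotide excision repair, the Fanconi anemia pathway, homologous recombination and translesion polymerases. E2F factors, held back by RB proteins, drive the genes of S phase, and ribosomal protein genes are short genes that are transcribed and translated as a coordinated set. Intron counts in poly(A) RNA come mostly from transcripts not yet spliced, so they follow recent transcription and splicing more closely than exon counts do.

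At 72 h the exon counts showed small differences. GPR89A and POLR2J3 were among 3 genes that fell, genes of DNA replication and crosslink repair had medians above 0, and those of cytosolic and mitochondrial ribosomes had medians below 0, with cytosolic ribosomal medians overlapping between the groups of libraries. The 3 falls were 0.0285% of the 10529 genes tested (edgeR's quasi-likelihood test, adjusted by Benjamini-Hochberg, adjusted p under 0.05). At an unadjusted p under 0.05, 1309 genes (12.4%) passed, 688 of them higher (6.53%) and 621 lower (5.9%). When libraries were scaled by their totals only, 67.3% of the passing genes were higher, against 52.6% with TMM scaling. All 3 cisplatin libraries lay above all 3 DMSO libraries in 930 genes (8.83%) and below them in 970 (9.21%). Numbers of higher, lower or non-overlapping genes in a list, in exon counts, are to be read against these shares.

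These counts moved with single libraries. DESeq2 called 80 genes in exon counts, 38 higher and 42 lower. Without DMSO replicate 3, edgeR called 74 genes, 35 higher and 39 lower, and 892 (8.47%) and 833 (7.91%) passed the unadjusted threshold. Without cisplatin replicate 2 the adjusted calls were 9 and without cisplatin replicate 1 there was 1. Without cisplatin replicate 3, or without DMSO replicate 2, edgeR's quasi-likelihood test called 0 genes, with 927 and 635 past the unadjusted threshold. Without DMSO replicate 1 that unadjusted count was 869, and without cisplatin replicate 1 it was 793. Over all genes the lower count, 621 with all libraries, was 452, 275 and 833 without DMSO replicates 1 to 3 and 402, 741 and 478 without cisplatin replicates 1 to 3, and the higher count, 688, was 417, 360, 892, 391, 798 and 449 in the same order. Counts for a list with a library left out are to be read against these. The 80 genes of DESeq2 held 7 cytosolic ribosomal protein genes, all lower, and the replication genes CDT1, MCM10, MCM2 and MCM4, all higher.

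GPR89A, a Golgi channel gene, had 17.5, 24.2 and 18.5 CPM in DMSO and 11.5, 10.4 and 8.6 CPM in cisplatin. All 3 cisplatin libraries lay below the DMSO libraries, with a log2 change of −0.97 ± 0.14 (SE) and an adjusted p of 0.00275 (edgeR quasi-likelihood test, Benjamini-Hochberg). POLR2J3, a gene related to a subunit of RNA polymerase II, had 2.06, 3.41 and 2.56 CPM in DMSO and 0.361, 0.654 and 0.469 CPM in cisplatin. It was lower in 3 of 3 cisplatin libraries, with a log2 change of −2.38 ± 0.39 and an adjusted p of 0.0155 (edgeR quasi-likelihood test, Benjamini-Hochberg). GPR89A has a near-identical copy in GPR89B and POLR2J3 in POLR2J2, so reads may be split between copies and both genes are uncertain. The adjusted p of GPR89A was 0.0615 without DMSO replicate 2 and 0.052 without cisplatin replicate 3 (edgeR quasi-likelihood test, Benjamini-Hochberg). That of POLR2J3 was 0.202 without DMSO replicate 2, 0.138 without cisplatin replicate 1 and 0.123 without cisplatin replicate 3 (edgeR quasi-likelihood test, Benjamini-Hochberg).

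Transcript length moved with the exon differences. Among 10521 genes with a length, the decile with the shortest transcripts (median 1184 bases) had a median log2 change of −0.09, with 10 genes higher and 187 lower at an unadjusted p under 0.05. The decile with the longest (median 9617 bases) had a median of 0.09, with 234 higher and 18 lower. Spearman's rho between length and log2 change was 0.389 across genes, which are not independent replicates, and −0.166 for the 24 h change. For intron counts it was 0.139. The longest decile minus the shortest one came to −0.03, −0.07 and 0.10 (log2) in DMSO replicates 1 to 3 and to 0.32, 0.05 and 0.16 in cisplatin replicates 1 to 3. The groups overlapped in this measure, since DMSO replicate 3 lay above cisplatin replicate 2, and cisplatin replicate 1 was the highest. Whether length, RNA integrity or library making had a part in a group's result was not tested. Many groups are therefore also given with a transcript length offset, chosen after seeing the data, which took rho to 0.007 (482 genes or 4.58% higher and 502 or 4.77% lower at an unadjusted p under 0.05).

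**Figure D1:**
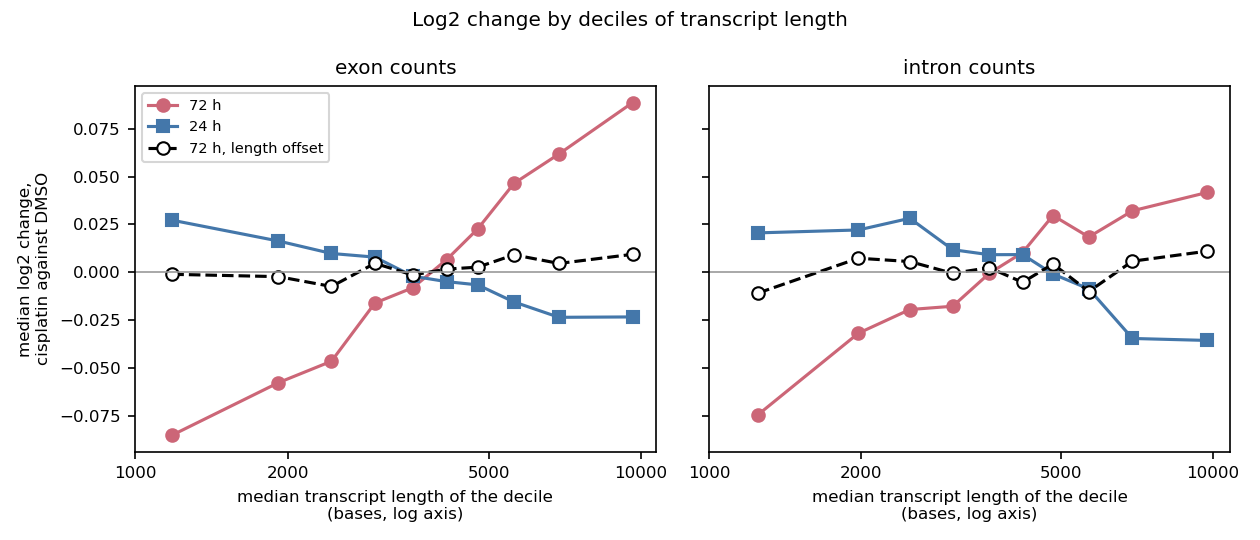
Median log2 change of cisplatin against DMSO in deciles of transcript length, for exon counts (left) and intron counts (right), against the median length of each decile in bases on a log axis. In exon counts at 72 h the medians run from −0.09 in the shortest decile to 0.09 in the longest, while at 24 h they run the other way and with the length offset they stay near 0.

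Genes of DNA replication had a median above that of all genes in cisplatin. The median log2 change of the 39 genes in this list was 0.11, against 0.00 over all genes, and 33 of the 39 had a positive change. At an unadjusted p under 0.05, 12 of the 39 were higher and 0 lower (edgeR), and all 3 cisplatin libraries lay above all DMSO libraries in 17 of them. None passed the adjusted threshold in edgeR's quasi-likelihood test, whereas DESeq2 called 4 of them higher. With the length offset the median was 0.12, with 16 higher and 0 lower. In each library, the median difference from the DMSO mean was −0.02, 0.01 and 0.01 in DMSO and 0.14, 0.09 and 0.10 in cisplatin, so the groups did not overlap.

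MCM10, which helps to start unwinding at origins, had 18.1, 16.7 and 19.4 CPM in DMSO and 24.8, 22.2 and 24 CPM in cisplatin. Its log2 change was 0.38 ± 0.07 (higher in 3 of 3 libraries), with an adjusted p of 0.0865 in edgeR's quasi-likelihood test, adjusted by Benjamini-Hochberg. CDT1, which loads the MCM helicase, had 72.9, 61.4 and 68.9 CPM in DMSO and 77.3, 84.5 and 87.3 CPM in cisplatin. MCM4, a helicase subunit, had 103, 85.4 and 94.5 CPM in DMSO and 117, 108 and 113 CPM in cisplatin. Both were higher in every cisplatin library than in any DMSO library, by 0.29 ± 0.07 for CDT1 and 0.26 ± 0.06 for MCM4 (log2). MCM2, another helicase subunit, had 193, 184 and 201 CPM in DMSO and 218, 227 and 226 CPM in cisplatin, a log2 change of 0.21 ± 0.06. MCM7 had the most exon counts of the list, with a log2 change of 0.07 ± 0.05 (unadjusted p = 0.15). POLA2 and POLE, chosen after their values were seen, encode subunits of the polymerases α and ε. POLA2 had 43, 43.8 and 46.4 CPM in DMSO and 49.6, 50.3 and 53.2 CPM in cisplatin, and POLE had 81.9, 84.1 and 86.3 CPM in DMSO and 100.1, 95.9 and 100.3 CPM in cisplatin. Neither overlapped between the groups, with log2 changes of 0.20 ± 0.06 and 0.23 ± 0.07.

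Promoters of this group were searched for E2F-type motifs because 33 of its 39 members had a positive change. Of the 35116 promoters in the RefSeq table (GRCh38.p14, 250 bases before to 50 bases after the start), 1164 (3.31%) held TTTGGCGC, TTTCCCGC, TTTCGCGC or TTTGCCGC on either strand. Of the 39 replication genes, 32 matched a promoter and 15 of these (46.9%) held such a motif. The share was 27.8% in the RB and G1 list, 18.5% for Fanconi anemia and recombination and 13.2% for oxidative phosphorylation. It was 9.38% for mitochondrial and 6.25% for cytosolic ribosomal protein genes. At an unadjusted p under 0.05, 6 of the 15 replication genes with a motif were higher and 3 of the 17 without one. The sequences are the promoters of CDT1 (chr16:88803539-88803838, plus strand), MCM2 (chr3:127598161-127598460, plus strand), POLA2 (chr11:65261712-65262011, plus strand) and POLE (chr12:132687293-132687592, minus strand), the matching genes with the smallest p. Each spans the start of its gene, and capitals mark the motif. A match describes these letters and is not shown to be a bound site.
CDT1: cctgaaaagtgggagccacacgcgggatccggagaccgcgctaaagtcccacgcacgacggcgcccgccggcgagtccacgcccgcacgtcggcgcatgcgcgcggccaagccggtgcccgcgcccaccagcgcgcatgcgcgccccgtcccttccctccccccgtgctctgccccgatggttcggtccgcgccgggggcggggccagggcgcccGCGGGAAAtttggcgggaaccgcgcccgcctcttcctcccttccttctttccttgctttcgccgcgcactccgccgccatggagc
MCM2: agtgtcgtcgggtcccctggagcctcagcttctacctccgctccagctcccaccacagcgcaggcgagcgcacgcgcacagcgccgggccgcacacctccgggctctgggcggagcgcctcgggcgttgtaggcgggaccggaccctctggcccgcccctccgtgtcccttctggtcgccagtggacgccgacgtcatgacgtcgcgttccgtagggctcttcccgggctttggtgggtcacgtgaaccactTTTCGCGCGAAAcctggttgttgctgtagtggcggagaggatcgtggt
POLA2: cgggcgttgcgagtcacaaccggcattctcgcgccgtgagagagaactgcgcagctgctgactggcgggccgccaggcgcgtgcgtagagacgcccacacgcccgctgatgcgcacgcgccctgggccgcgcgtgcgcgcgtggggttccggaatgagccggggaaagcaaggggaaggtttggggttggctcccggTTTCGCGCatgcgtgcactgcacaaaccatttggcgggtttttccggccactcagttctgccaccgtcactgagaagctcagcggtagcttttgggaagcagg
POLE: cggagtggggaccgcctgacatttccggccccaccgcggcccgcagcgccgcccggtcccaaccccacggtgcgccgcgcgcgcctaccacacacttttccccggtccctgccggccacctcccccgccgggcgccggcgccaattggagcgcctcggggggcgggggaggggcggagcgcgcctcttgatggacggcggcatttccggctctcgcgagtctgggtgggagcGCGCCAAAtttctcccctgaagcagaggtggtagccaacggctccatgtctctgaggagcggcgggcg

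Intron counts of replication genes had a positive median too. Their median log2 change over 38 genes was 0.09, against 0.00 over all genes, with 6 higher and 0 lower at an unadjusted p under 0.05 (over all 9235 genes, 266 or 2.88% were higher and 326 or 3.53% lower). All cisplatin libraries lay above all DMSO libraries in 12 of the 38 and below in 2, against 577 (6.25%) and 653 (7.07%) of all genes. CHAF1A, a chaperone that lays histones on new DNA, had 13.8, 11.2 and 22.4 CPM in DMSO and 32.3, 25.8 and 31.6 CPM in cisplatin in introns. The groups did not overlap, with a log2 change of 0.83 ± 0.22 in intron counts and 0.10 ± 0.06 in exon counts. POLE had 63.5, 52 and 52.9 CPM in DMSO and 71, 75.7 and 71.7 CPM in cisplatin in introns, again without overlap, a log2 change of 0.39 ± 0.14.

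Genes of the Fanconi anemia pathway and homologous recombination had a positive median in exon counts as well. The median log2 change of 31 genes was 0.08, with 10 higher and 0 lower at an unadjusted p under 0.05 (edgeR, none past the adjusted threshold). DESeq2 called 1 of them, RAD54L. All cisplatin libraries lay above the DMSO libraries in 12 of the 31 and below in 1. With the length offset the median was 0.11, with 10 higher and 1 lower. Library medians were −0.01, 0.01 and 0.00 in DMSO and 0.12, 0.03 and 0.05 in cisplatin, with cisplatin replicate 1 the highest.

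FANCD2, which is ubiquitinated at stalled forks, had 18.9, 19.6 and 20.4 CPM in DMSO and 26.6, 24.1 and 24.9 CPM in cisplatin. It was higher in every cisplatin library, by 0.35 ± 0.08 (log2, unadjusted p = 9.17e-05). Its introns had 29.5, 17.7 and 26.8 CPM in DMSO and 35.2, 32.2 and 33 CPM in cisplatin, also without overlap, but FANCD2OS lies on the opposite strand and the strand setting of the counting is not given, so this value is uncertain. RAD54L, a motor protein of homologous recombination, had 38.8, 41.4 and 42.8 CPM in DMSO and 50, 46.5 and 48.7 CPM in cisplatin, a log2 change of 0.24 ± 0.06. FANCM, a translocase that recognises stalled forks, had 9.58, 9.28 and 8.72 CPM in DMSO and 12, 11.7 and 11.3 CPM in cisplatin, and FANCI, the partner of FANCD2, had 66.9, 67.9 and 71.5 CPM in DMSO and 82.4, 73.6 and 78.2 CPM in cisplatin. RAD50, with the most exon counts of the list, showed a log2 change of −0.01 ± 0.06 (unadjusted p = 0.91). In introns the list's median was 0.08 over 30 genes, with 3 higher and 1 lower. The 3 became 0 without DMSO replicate 2, 1 without cisplatin replicate 1 or cisplatin replicate 3, and 4 without DMSO replicate 1.

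Checkpoint and nucleotide supply genes also had members that were higher. Of 24 checkpoint kinases and mediators, 7 were higher and 0 lower at an unadjusted p under 0.05, with a median log2 change of 0.07. Without cisplatin replicate 1 this count was 1, without DMSO replicate 1 it was 4, without DMSO replicate 3 it was 6 higher and 2 lower, and with the length offset it was 4 higher and 1 lower. PRKDC, the catalytic subunit of DNA-dependent protein kinase, had 245, 257 and 275 CPM in DMSO and 339, 279.6 and 333 CPM in cisplatin. The groups did not overlap, with a log2 change of 0.29 ± 0.07. TIMELESS (0.18 ± 0.06), CLSPN (0.29 ± 0.10) and CDC25A (0.23 ± 0.08), which act at forks and in the S phase checkpoint, were the other members with the smallest p. Among 19 genes of deoxynucleotide supply, 6 were higher and 0 lower (3 without cisplatin replicate 1), with a median of 0.04 and of 0.05, with 5 higher, after the length offset. The median was −0.01, 0.08 and 0.10 without DMSO replicates 1 to 3 and 0.03, 0.00 and −0.01 without cisplatin replicates 1 to 3. Library medians were −0.02, 0.03 and −0.01 in DMSO and −0.03, 0.04 and 0.05 in cisplatin, so the groups overlapped. RRM2, a subunit of ribonucleotide reductase, had 186, 196 and 186 CPM in DMSO and 219, 212 and 214 CPM in cisplatin. It was higher in every cisplatin library, by 0.18 ± 0.05.

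Genes of the RB pathway and G1 gave a median log2 change of 0.05 over 23 genes, and of 0.03 without cisplatin replicate 1. At an unadjusted p under 0.05, 4 were higher and 0 lower, against 688 (6.53%) and 621 (5.9%) of all genes. After the length offset the median was 0.06, with 4 higher and 1 lower. E2F2, an activating E2F factor, had 8.51, 8.53 and 9.29 CPM in DMSO and 11.6, 10.1 and 12.1 CPM in cisplatin. It was higher in every cisplatin library, by 0.35 ± 0.11, and CDK6, a G1 kinase, differed by 0.47 ± 0.15 (unadjusted p = 0.00512). In introns the list's median was 0.11, yet 0 of 23 genes passed the unadjusted threshold in edgeR and 5 lay wholly above DMSO. Mitotic genes stood near the background, with a median of 0.01 over 46 genes, 4 higher and 3 lower (2 and 2 after the length offset). The lower count was 0 without DMSO replicate 2 and the higher count 7 without cisplatin replicate 2, while without DMSO replicate 1 or cisplatin replicate 1 the higher count was 2. Of 40 mitotic genes with a promoter, 3 (7.5%) held an E2F-type motif.

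**Figure D2:**
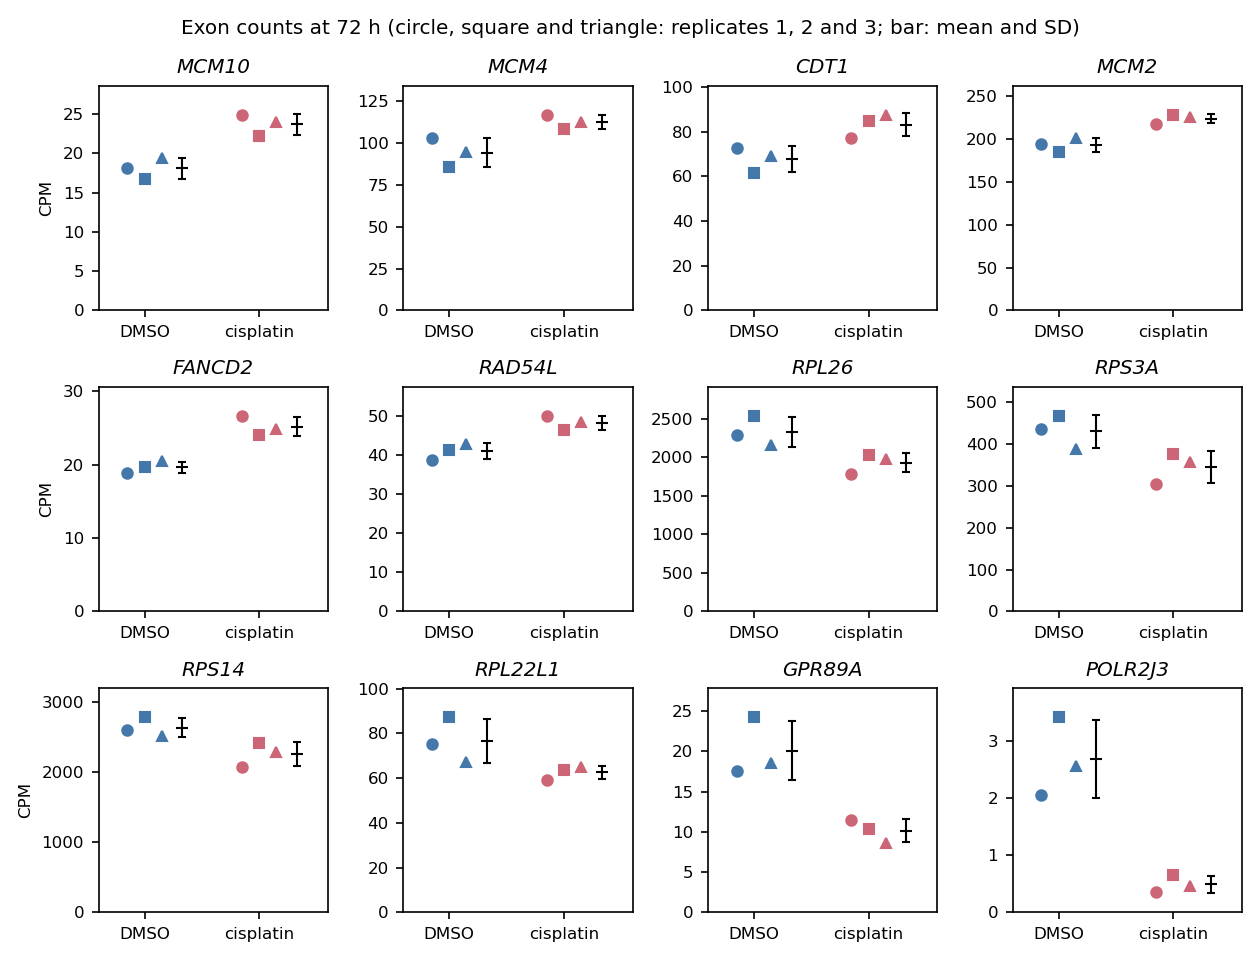
Exon counts in CPM of 12 genes in the 72 h libraries labelled TYK-nu, 3 with DMSO (blue) and 3 with 15 μM cisplatin (red), with the group mean and SD as bars. The 6 genes of replication and repair (MCM10 to RAD54L) lie higher and the 6 others (RPL26 to POLR2J3) lower in every cisplatin library, and the axes start at 0.

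Cytosolic ribosomal protein genes had a median below 0 in cisplatin, though the libraries of the 2 groups overlapped. The median log2 change of 80 genes was −0.12 in exon counts, against 0.00 over all genes, and 4 of the 80 had a positive change. At an unadjusted p under 0.05, 0 were higher and 36 lower (edgeR, none past the adjusted threshold; DESeq2 called 7). All 3 cisplatin libraries lay below all DMSO libraries in 17 of the 80 and above in 0. These genes are short (median transcript 1938 bases), and with the length offset the median was −0.08, with 0 higher and 23 lower. Library medians were −0.04, 0.10 and −0.05 in DMSO and −0.25, −0.04 and −0.08 in cisplatin. The groups thus overlapped: cisplatin replicate 2 lay level with DMSO replicates 1 and 3, and the gap came from cisplatin replicate 1 and DMSO replicate 2. Without DMSO replicate 2 the lower count was 13 (275 over all genes), and without cisplatin replicate 1 it was 16 (402 over all genes). Without DMSO replicate 3 it was 41 (833 over all genes, against 621 with all libraries). The median was −0.07 without DMSO replicate 2 and −0.06 without cisplatin replicate 1.

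RPL26, a protein of the large subunit, had 2297, 2534 and 2155 CPM in DMSO and 1790.4, 2031 and 1973 CPM in cisplatin. All cisplatin libraries lay below the DMSO libraries, with a log2 change of −0.27 ± 0.06 (unadjusted p = 0.000103) and of −0.18 with the length offset. RPS3A, of the small subunit, had 436, 466 and 389 CPM in DMSO and 304, 377 and 356 CPM in cisplatin. RPS14, also of the small subunit, had 2601, 2778 and 2514 CPM in DMSO and 2075, 2411 and 2289.6 CPM in cisplatin. Neither gene overlapped between the groups, with log2 changes of −0.32 ± 0.07 and −0.22 ± 0.05. RPL27 showed a change of −0.27 ± 0.07, and RPLP0, with the most exon counts, one of −0.13 ± 0.05 (unadjusted p = 0.0206). RPL22L1, a paralog of RPL22 that was chosen after its values were seen, had 75.3, 87.2 and 67.4 CPM in DMSO and 59.2, 63.5 and 64.8 CPM in cisplatin, a change of −0.29 ± 0.08.

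Transcripts of ribosomal proteins are known to start with a C within a run of pyrimidines, which ties their translation to growth signals. A start with C followed by 4 bases that are each C or T was found in 1429 of the 35116 promoters (4.07%), read on the gene's strand. Of 64 ribosomal protein genes with a promoter, 42 (65.6%) had it, whereas 4 of 64 mitochondrial ribosomal protein genes did (6.25%). At an unadjusted p under 0.05, 15 of the 42 with this start were lower and 11 of the 22 without it. The starts of RPL26 (chr17:8383174-8383203, minus strand), RPS3A (chr4:151099618-151099647, plus strand), RPS14 (chr5:150449720-150449749, minus strand) and RPL22L1 (chr3:170870176-170870205, minus strand) are printed from RefSeq (GRCh38.p14), since these carry the run and had the smallest p. Capitals mark the run from the first transcribed base.
RPL26: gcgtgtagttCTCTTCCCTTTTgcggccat
RPS3A: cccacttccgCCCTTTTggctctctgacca
RPS14: ccctcccactCTCTCTTTCCggtgtggagt
RPL22L1: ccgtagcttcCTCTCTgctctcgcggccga

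Mitochondrial ribosomes and the respiratory chain also had medians below 0, nearer 0 than that of cytosolic ribosomal proteins. Of 73 mitochondrial ribosomal protein genes, 0 were higher and 23 lower at an unadjusted p under 0.05, with a median log2 change of −0.10 (−0.03 and 12 lower with the length offset). Their library medians were 0.01, 0.06 and −0.05 in DMSO and −0.15, −0.06 and −0.09 in cisplatin. Their lower count was 9 without DMSO replicate 2 and 27 without DMSO replicate 3. Without DMSO replicate 2 their median was −0.06. MRPL32, of the large mitochondrial subunit, had 119.6, 117 and 104 CPM in DMSO and 96.8, 103 and 92.7 CPM in cisplatin, and MRPS5, of the small one, had 215, 221 and 202 CPM in DMSO and 192, 186 and 179.6 CPM in cisplatin. Both were lower in every cisplatin library. Of 67 nuclear genes of oxidative phosphorylation, 0 were higher and 15 lower, against 621 (5.9%) of all genes lower, with a median of −0.09. The length offset made this 3 higher and 7 lower around a median of −0.03. Library medians were −0.03, 0.08 and −0.03 in DMSO and −0.17, −0.02 and −0.03 in cisplatin, so the groups overlapped, with cisplatin replicate 1 the lowest and DMSO replicate 2 the highest. The lower count was 3 without DMSO replicate 2, 2 without cisplatin replicate 1 and 23 without DMSO replicate 3. The median was −0.04 without DMSO replicate 2 or without cisplatin replicate 1. NDUFB2, a subunit of complex I, had 58.6, 67.5 and 58.9 CPM in DMSO and 49.8, 56.7 and 56 CPM in cisplatin, a log2 change of −0.19 ± 0.07.

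**Figure D3:**
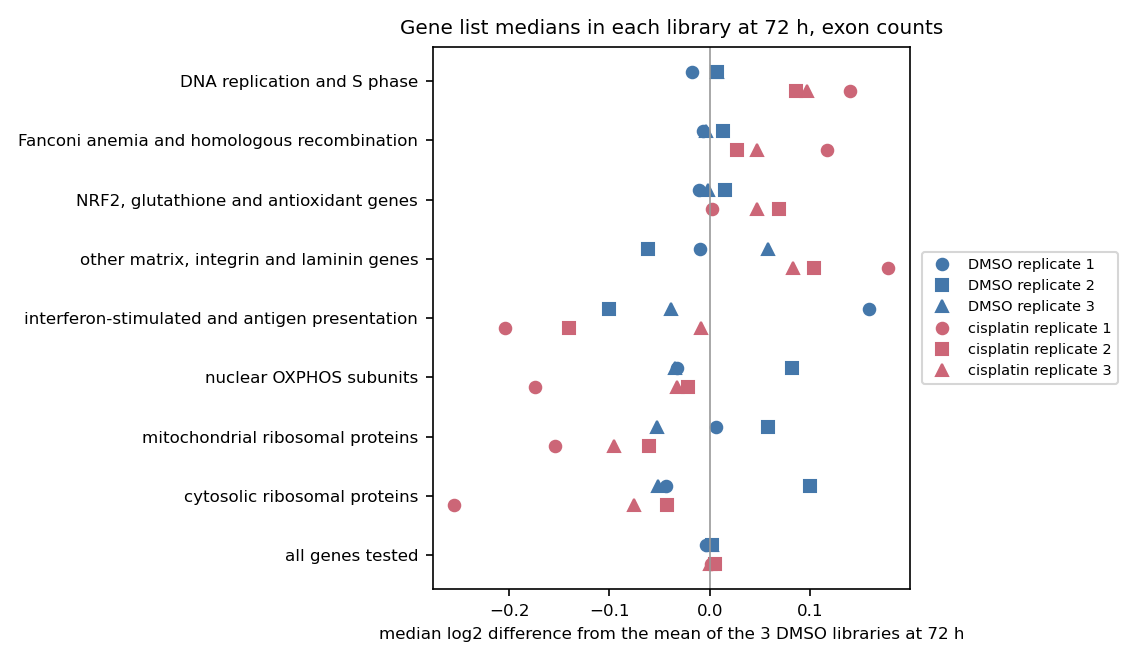
Median log2 difference of each gene list from the mean of the 3 DMSO libraries at 72 h, for each library in exon counts (blue for DMSO, red for cisplatin). Replication genes separate the groups, whereas cytosolic ribosomal proteins span −0.05 to 0.10 in DMSO and −0.25 to −0.04 in cisplatin and overlap.

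Ribosomal protein genes had a negative median in intron counts too, with exceptions. Of 79 genes, 26 were lower and 5 higher at an unadjusted p under 0.05, with a median log2 change of −0.13. All cisplatin libraries lay below all DMSO libraries in 20 and above in 1. After the length offset 16 were lower and 6 higher, around a median of −0.09, against 286 (3.1%) and 269 (2.91%) of all genes. The lower count was 14 without DMSO replicate 2 or without cisplatin replicate 1, and the higher count was 2 without cisplatin replicate 2. RPS14 had 285, 331 and 321 CPM in DMSO and 259, 254 and 248 CPM in cisplatin in introns. These did not overlap, with a log2 change of −0.30 ± 0.10. Introns of ribosomal protein genes often hold genes for small nucleolar RNAs, and their reads are not separated here. For mitochondrial ribosomal proteins the intron median was −0.08, and −0.03 with the length offset, with 1 gene higher and 1 lower of 71.

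In intron counts 8 genes (0.0866% of 9235) passed the adjusted threshold, 3 higher and 5 lower, and 592 (6.41%) passed the unadjusted one. RPS19, TK1 and RPS20 rose, and RPS27A, TMEM237, EIF3C, RPL24 and FLT3LG fell. The split of the passing genes depended on the scaling: 44.9% were higher with TMM, 75.1% with library totals and 87.3% with the scaling of the exon libraries. DESeq2 called 1 gene, TMEM237. Without DMSO replicate 2 edgeR called 4 genes, and without cisplatin replicate 1 or cisplatin replicate 2 it called 5.

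RPS19, a small subunit protein gene that is mutated in an inherited anemia, had 129, 117 and 119 CPM in DMSO and 196, 244 and 198 CPM in cisplatin in introns. It was higher in 3 of 3 cisplatin libraries, by 0.81 ± 0.11 (log2), with an adjusted p of 8.79e-06 in edgeR's quasi-likelihood test, adjusted by Benjamini-Hochberg. Leaving out 1 library kept this p at or below 0.00308 (edgeR quasi-likelihood test, Benjamini-Hochberg), and the exon counts of RPS19 differed by −0.05 ± 0.06. RPS27A, which encodes ubiquitin fused to a ribosomal protein, had 731, 889 and 667 CPM in DMSO and 419, 449 and 531 CPM in cisplatin in introns. All cisplatin libraries lay below the DMSO libraries, with a log2 change of −0.71 ± 0.11 and an adjusted p of 7.34e-05 (edgeR quasi-likelihood test, Benjamini-Hochberg). CLHC1 overlaps RPS27A on the opposite strand, which makes this count uncertain, and DESeq2 gave it an adjusted p of 0.0743. Its exon counts differed by −0.19 ± 0.06. TMEM237, a gene of the ciliary transition zone, had 252, 299 and 259 CPM in DMSO and 176, 185 and 166 CPM in cisplatin in introns. It was lower in 3 of 3 libraries, with a log2 change of −0.62 ± 0.11 and adjusted p-values of 0.00214 by edgeR's quasi-likelihood test, adjusted by Benjamini-Hochberg, and 0.00139 by DESeq2. Without DMSO replicate 2 edgeR's test, adjusted by Benjamini-Hochberg, gave 0.0843.

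TK1, thymidine kinase of S phase, had 6.91, 17.7 and 9.18 CPM in DMSO and 28.1, 23.2 and 24.4 CPM in cisplatin in introns. It was higher in every cisplatin library, by 1.18 ± 0.25, with an adjusted p of 0.0232 (edgeR quasi-likelihood test, Benjamini-Hochberg). By the same edgeR test, adjusted by Benjamini-Hochberg, this p was 0.389 without DMSO replicate 1, 0.252 without DMSO replicate 3 and 0.14 without cisplatin replicate 1. Its exons had 81.4, 80.2 and 83.3 CPM in DMSO and 91.1, 92.1 and 94.3 CPM in cisplatin, also without overlap, a log2 change of 0.18 ± 0.06. EIF3C, a subunit of a translation initiation factor, had 45.9, 50.8 and 19.5 CPM in DMSO and 18.5, 16.8 and 15.8 CPM in cisplatin in introns. All cisplatin libraries lay below DMSO, but DMSO replicate 3 lay close to them, and reads may be shared with the copy EIF3CL. Its log2 change was −1.13 ± 0.25, with an adjusted p of 0.0252 (edgeR quasi-likelihood test, Benjamini-Hochberg). Without DMSO replicate 3 it was 0.000195, while it was 0.531 and 0.761 without DMSO replicates 1 and 2, and 0.115, 0.154 and 0.209 without cisplatin replicates 1 to 3 (edgeR quasi-likelihood test, Benjamini-Hochberg).

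The other 3 intron calls rested on 1 library each. RPL24 had 133, 495 and 122 CPM in DMSO and 124, 129.5 and 126 CPM in cisplatin in introns, and only DMSO replicate 2 was high. RPS20 had 126, 130.5 and 95.9 CPM in DMSO and 136, 330.1 and 123.4 CPM in cisplatin, and only cisplatin replicate 2 was high. FLT3LG, a ligand of a hematopoietic receptor kinase, had 14.4, 8.27 and 59.9 CPM in DMSO and 7.67, 12.2 and 5.74 CPM in cisplatin, and only DMSO replicate 3 was high. In each of these genes the groups overlapped. Without the high library, the log2 change was −0.01 for RPL24, 0.16 for RPS20 and −0.35 for FLT3LG, against −0.96, 0.79 and −1.71 with all libraries. By edgeR's quasi-likelihood test, adjusted by Benjamini-Hochberg, the adjusted p was 0.0252 for each of the 3 genes, and 0.998, 0.932 and 0.911 without the high library. RPL24 also missed the threshold without cisplatin replicate 1, 2 or 3, FLT3LG without cisplatin replicate 1 or 3, and RPS20 without DMSO replicate 1, 2 or 3, with adjusted p-values between 0.0826 and 0.278 (edgeR quasi-likelihood test, Benjamini-Hochberg).

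**Figure D4:**
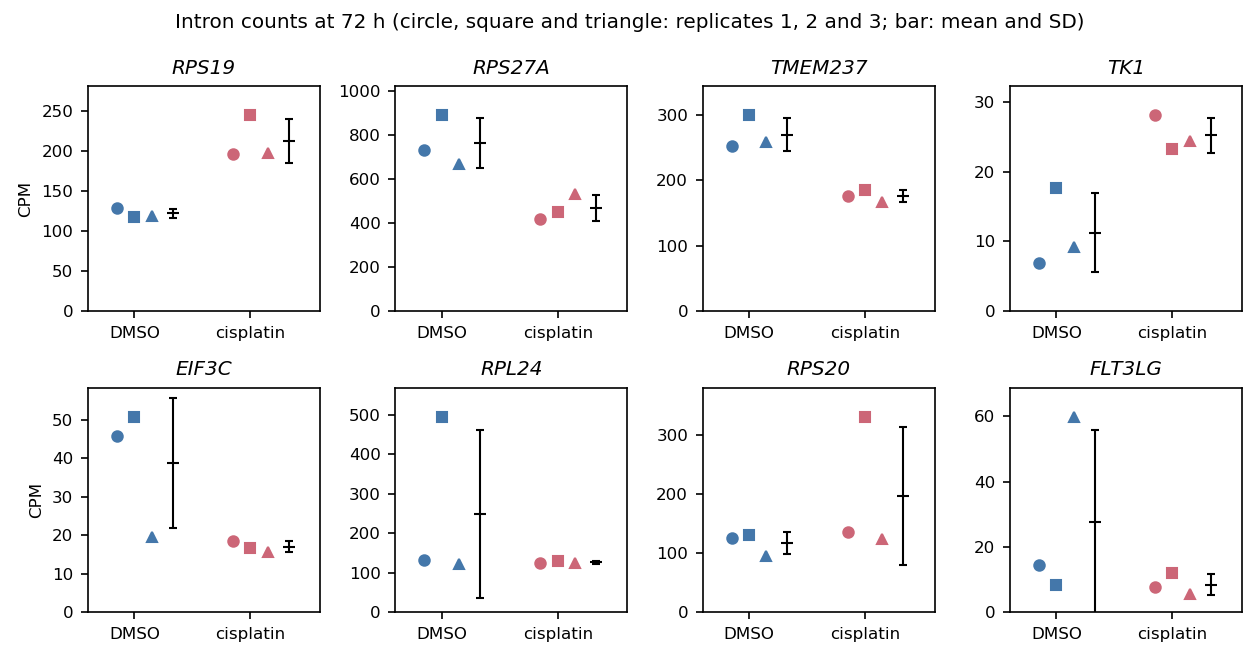
Intron counts in CPM of the 8 genes with an adjusted p under 0.05, in the 3 DMSO (blue) and 3 cisplatin (red) libraries at 72 h, with the group mean and SD as bars. RPS19, RPS27A, TMEM237, TK1 and EIF3C separate the groups, whereas RPL24, RPS20 and FLT3LG each rest on 1 high library.

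Some genes of the matrix and of YAP signalling were higher in exon counts, none of them past the adjusted threshold in edgeR. Of 22 targets of YAP and TEAD, 7 were higher and 1 lower at an unadjusted p under 0.05, with a median log2 change of 0.10 (0.08, with 5 higher and 0 lower, with the length offset). Over all genes 688 (6.53%) were higher and 621 (5.9%) lower, and with the length offset 482 (4.58%) and 502 (4.77%). Library medians were −0.03, −0.03 and 0.01 in DMSO and 0.11, 0.09 and 0.08 in cisplatin, so the groups did not overlap. DOCK5, an activator of RAC, had 30.1, 33.6 and 38.5 CPM in DMSO and 43.2, 41.7 and 41.5 CPM in cisplatin, and PTPN14, a phosphatase that restrains YAP, had 91.5, 88.3 and 103 CPM in DMSO and 119.8, 98.4 and 119 CPM in cisplatin. DOCK5 was higher in every cisplatin library, by 0.30 ± 0.08, whereas PTPN14, with a log2 change of 0.25 ± 0.07, overlapped between the groups. In introns the YAP list had a median of 0.08, with 0 of 19 genes past the unadjusted threshold in edgeR.

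Of 25 matrix, integrin and laminin genes, 5 were higher and 0 lower at an unadjusted p under 0.05. Their median was 0.08, and 8 lay wholly above DMSO. Their transcripts are long (median 5692 bases), and the length offset gave 5 higher and 1 lower, around 0.05. Over all genes 688 (6.53%) were higher, 621 (5.9%) lower and 930 (8.83%) wholly above DMSO. ITGA5, the fibronectin receptor subunit, had 224, 231 and 235 CPM in DMSO and 265, 250.5 and 264 CPM in cisplatin. LAMA5, a chain of basement membrane laminin, had 406, 356 and 399 CPM in DMSO and 453, 447 and 512 CPM in cisplatin. Both were higher in every cisplatin library, with log2 changes of 0.18 ± 0.05 and 0.28 ± 0.08. The intron median of this list was −0.02, with 1 higher of 18. Of 17 TGF-beta and BMP targets 4 were higher and 0 lower (0 without DMSO replicate 2 and 1 without cisplatin replicate 1), with a median of 0.09. After the length offset 5 were higher and 1 lower. The 16 mesenchymal genes had a median of 0.09 with 3 higher and 1 lower, and 2 higher and 0 lower around 0.04 with the length offset. Their higher count was 1 without cisplatin replicate 3, and their median was 0.04 without cisplatin replicate 1 and 0.06 without DMSO replicate 1. The 8 collagen genes had a median of 0.08, with none past the unadjusted threshold in edgeR. The collagen median was 0.03 with the length offset and 0.05 without DMSO replicate 1.

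Endothelial markers also had medians above 0, with none past the adjusted threshold in edgeR. Of the 7 tested, 3 were higher and 0 lower in exon counts, against 688 (6.53%) and 621 (5.9%) of all genes. The median log2 change was 0.15 for exons and 0.18 for introns. It was 0.09 for exons without DMSO replicate 2 and 0.09 for introns without cisplatin replicate 2. The length offset left 1 higher, around a median of 0.10. Library medians were −0.04, −0.05 and 0.06 in DMSO and 0.20, 0.11 and 0.12 in cisplatin. The part of this list in the matrix and YAP results was not tested.

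Some genes that handle platinum and oxidants were higher, none of them past the adjusted threshold in edgeR. Of 24 targets of NRF2 and genes of glutathione and antioxidant defence, 4 were higher and 0 lower at an unadjusted p under 0.05, with a median of 0.03. Library medians were −0.01, 0.02 and 0.00 in DMSO and 0.00, 0.07 and 0.05 in cisplatin, so the groups overlapped, and the median was 0.01 without DMSO replicate 3 or cisplatin replicate 2 and 0.05 without DMSO replicate 2 or cisplatin replicate 1. The length offset gave 9 higher and 0 lower, around 0.08 (against 482 or 4.58% of all genes higher), and without DMSO replicate 2 the count with TMM scaling was 2. GCLM, a subunit of the enzyme that starts glutathione synthesis, had 137, 142 and 135 CPM in DMSO and 158, 157 and 156 CPM in cisplatin. GSR, glutathione reductase, had 39.1, 36.7 and 38.1 CPM in DMSO and 44.2, 43 and 43.2 CPM in cisplatin. Both were higher in every cisplatin library, by 0.19 ± 0.06 and 0.20 ± 0.06 (log2). Of 12 genes of platinum handling, copper transport and metallothioneins, 2 were higher (1 without DMSO replicate 1 or without cisplatin replicate 3, 3 with the length offset), with a median of 0.10. Library medians were 0.00, 0.03 and 0.02 in DMSO and −0.06, 0.09 and 0.14 in cisplatin, and cisplatin replicate 1 lay below every DMSO library. The median was 0.06 without DMSO replicate 2 or cisplatin replicate 3. LRRC8A, the core of a volume-regulated channel through which platinum drugs can enter, had 35.1, 32.6 and 41.8 CPM in DMSO and 45.1, 44.7 and 43.4 CPM in cisplatin, a log2 change of 0.28 ± 0.08.

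Targets of p53 and excision repair genes had medians just below 0. Of 21 p53 targets, 1 was higher and 0 lower, with a median of −0.04, 3 wholly above and 6 wholly below DMSO (1 higher and 2 lower after the length offset), against 930 (8.83%) and 970 (9.21%) of all genes. Library medians were 0.01, 0.01 and −0.01 in DMSO and −0.03, −0.01 and −0.04 in cisplatin, so the groups did not overlap, by a small margin. The median of the p53 list was −0.03, −0.01 and −0.02 without DMSO replicates 1 to 3. It was −0.03, −0.02 and −0.04 without cisplatin replicates 1 to 3, and −0.01 with the length offset. The 1 was POLH, a translesion polymerase that passes platinum adducts, with 13, 13.3 and 13.2 CPM in DMSO and 16.1, 15 and 17.7 CPM in cisplatin. It was higher in every cisplatin library, by 0.30 ± 0.08. SESN2, the p53 target with the most exon counts, differed by −0.06 ± 0.05 (unadjusted p = 0.223). Of 28 nucleotide excision repair genes, 0 were higher and 4 lower, against 621 (5.9%) of all genes lower, with a median of −0.02. Library medians were 0.00, 0.03 and −0.03 in DMSO and −0.02, 0.00 and −0.02 in cisplatin and overlapped. The count was 8 lower and 3 higher without DMSO replicate 3, 2 lower without either of DMSO replicates 1 and 2, and 2 lower with the length offset. Mismatch repair (1 higher of 10), translesion synthesis (1 higher and 2 lower of 16) and the BCL2 family (none of 9 in edgeR) gave medians of 0.07, 0.02 and 0.01. The translesion median was −0.04 with the length offset and −0.02 without cisplatin replicate 1. That of the BCL2 family was −0.02 without cisplatin replicate 2, where 1 gene was higher and 2 lower. It was −0.01 without either of DMSO replicates 1 and 2.

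Interferon-stimulated and antigen presentation genes had a low median that single libraries shaped. Over 42 genes the median log2 change was −0.12, with 0 higher and 4 lower. Library medians were 0.16, −0.10 and −0.04 in DMSO and −0.20, −0.14 and −0.01 in cisplatin, so the groups overlapped. The lower count was 0 without DMSO replicate 1 or without cisplatin replicate 1, 12 without DMSO replicate 2 or without cisplatin replicate 3, 9 without DMSO replicate 3 and 2 after the length offset. HLA-E, which presents peptides to natural killer cells, had 1648, 1541 and 1573 CPM in DMSO and 1381, 1502 and 1471 CPM in cisplatin, a log2 change of −0.13 ± 0.05. In introns the median was −0.13, with 4 lower and 0 higher of 39 (0 lower without DMSO replicate 1, 8 without DMSO replicate 2). IRF7, a master factor of interferon genes that was chosen after its values were seen, had 489, 351 and 371 CPM in DMSO and 292, 306 and 311 CPM in cisplatin in introns. Every cisplatin library lay below the DMSO libraries, with a log2 change of −0.41 ± 0.13.

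**Figure D5:**
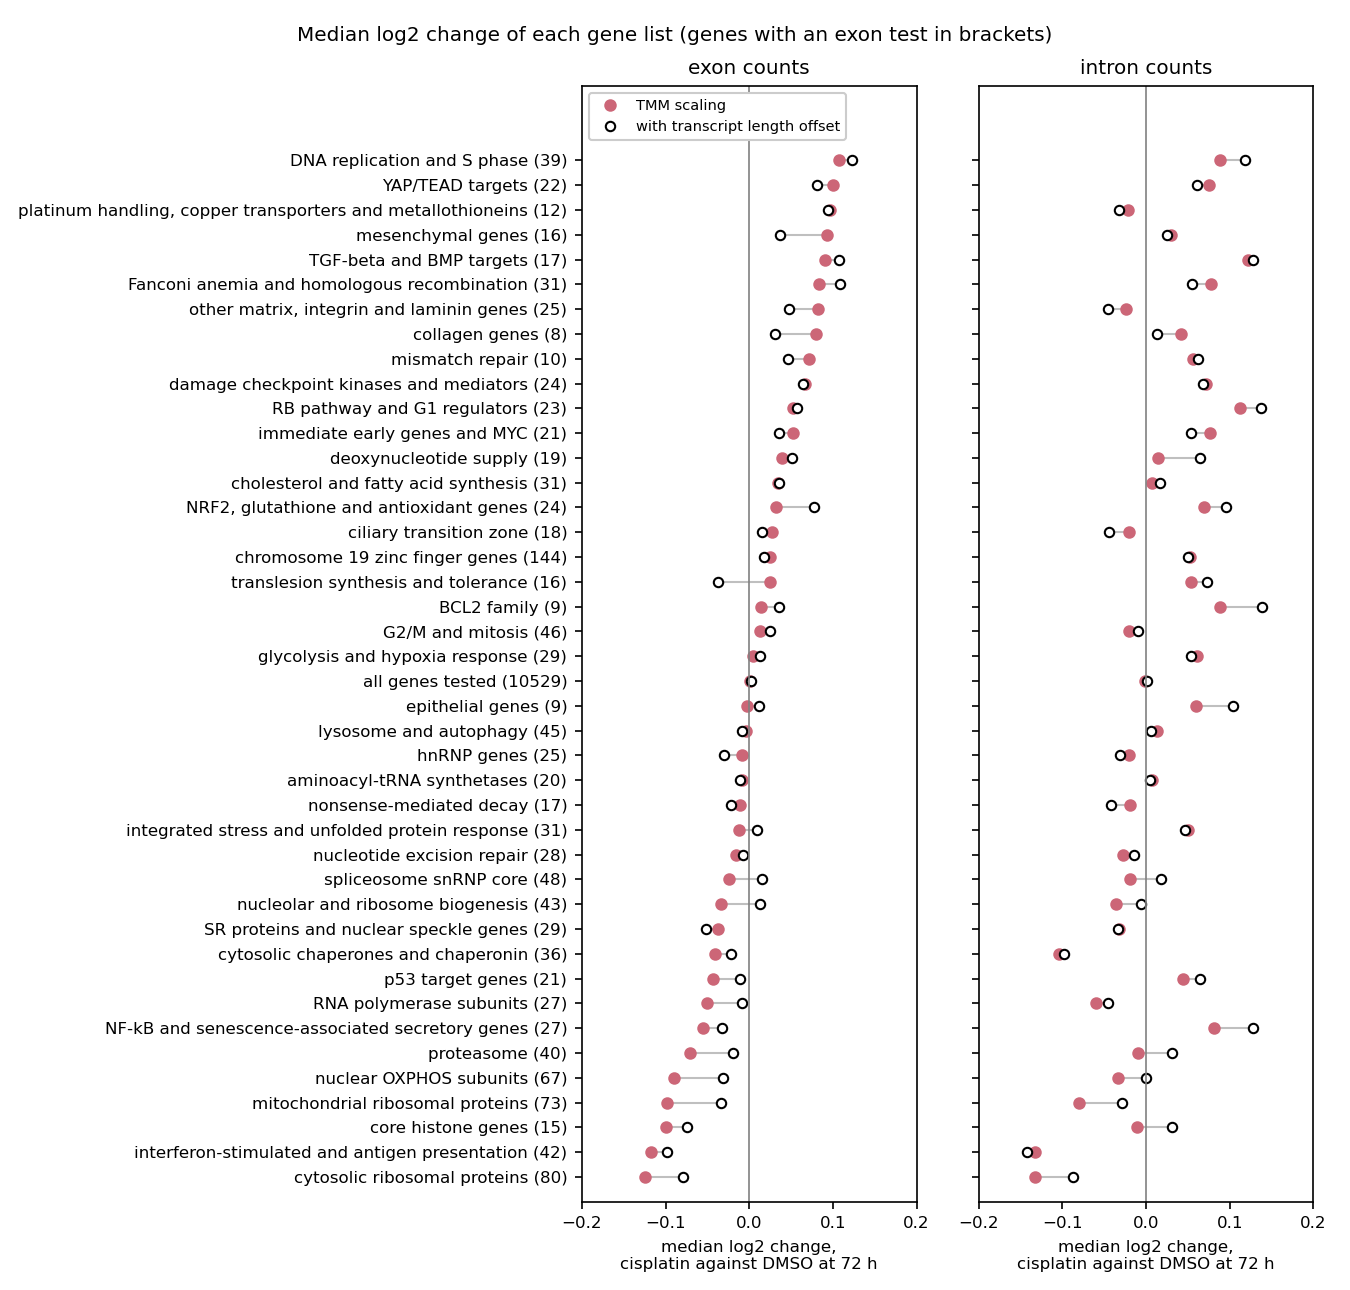
Median log2 change of cisplatin against DMSO at 72 h in each functional gene list (cell type marker lists and the serous lineage list are not drawn), for exon counts (left) and intron counts (right), with TMM scaling (filled) and with the transcript length offset (open). Of the lists drawn, replication genes lie highest in exon counts at 0.11 and cytosolic ribosomal proteins lowest at −0.12, and the offset moves mitochondrial ribosomal proteins from −0.10 to −0.03.

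RNA processing lists had medians near 0, and SR protein and nuclear speckle genes had the most members wholly below DMSO. Of 48 genes of the spliceosome core, 5 were higher and 6 lower, with a median of −0.02, and 1 lower was left without DMSO replicate 1 or DMSO replicate 2. Without DMSO replicate 3 it was 3 higher and 8 lower, without cisplatin replicate 1 it was 2 higher and 4 lower, without cisplatin replicate 3 it was 3 higher and 6 lower, and with the length offset 4 and 4. Of 29 SR protein and nuclear speckle genes 2 were higher and 3 lower, with a median of −0.04, and 8 lay wholly below DMSO, against 970 (9.21%) of all genes. The lower count was 0 without DMSO replicate 2 or cisplatin replicate 1, 1 without cisplatin replicate 2 or cisplatin replicate 3, 5 without DMSO replicate 3 and 6 with the length offset, and the higher count was 1 without cisplatin replicate 1. Their introns had 0 higher and 5 lower of 28, against 326 (3.53%) of all genes lower. This was 2 lower without DMSO replicate 2 or cisplatin replicate 3, and 3 without DMSO replicate 1, without cisplatin replicate 1 or with the length offset. CLK1, a kinase of SR proteins, had 93.9, 98.1 and 91.5 CPM in DMSO and 82, 84.9 and 89.1 CPM in cisplatin in exons. SRRM2, the scaffold of nuclear speckles with the most counts of that list, differed by 0.23 ± 0.06 (unadjusted p = 0.0014). The 25 hnRNP genes had 2 lower (3 after the length offset), and the 17 genes of nonsense-mediated decay 1 higher and 2 lower (0 and 1 after it), with medians of −0.01 and −0.01. The hnRNP lower count was 0 without DMSO replicate 2 or cisplatin replicate 3 and 1 without DMSO replicate 1. Decay genes counted 0 higher and 0 lower without DMSO replicate 1, and 2 higher and 3 lower without DMSO replicate 3. They counted 0 higher and 3 lower without cisplatin replicate 1, and 3 higher and 1 lower without cisplatin replicate 2.

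Exon and intron counts were then read together. Among genes with an unadjusted p under 0.05 and no overlap between the groups, 863 passed in exon counts (434 higher and 429 lower) and 377 in intron counts (158 higher and 219 lower). In 56 genes both layers passed in the same direction, 21 higher and 35 lower, and in 3 the directions were opposite. Exon and intron counts come from the same libraries, so a shared direction is not independent support. HSPG2, the basement membrane proteoglycan perlecan, had 20.3, 20.6 and 21.2 CPM in DMSO and 26.9, 24.7 and 30.5 CPM in cisplatin in exons and 101, 117 and 109 CPM in DMSO and 161, 135 and 159 CPM in cisplatin in introns. PLEC, which links filaments to junctions, had 231, 204 and 247 CPM in DMSO and 267, 263 and 299 CPM in cisplatin in exons and 122, 132 and 145 CPM in DMSO and 187, 175 and 195 CPM in cisplatin in introns. Both genes were higher in every cisplatin library in both layers, by 0.39 (exon) and 0.47 (intron) for HSPG2 and by 0.28 and 0.47 for PLEC on the log2 scale. GAS6, the ligand of AXL, differed by 0.28 ± 0.11 in exons and 0.67 ± 0.25 in introns, and NFIC, a transcription factor, by 0.25 ± 0.10 and 0.43 ± 0.17.

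On the lower side, ELOVL6, a fatty acid elongase, had 2.57, 1.97 and 1.93 CPM in DMSO and 1.79, 1.37 and 1.54 CPM in cisplatin in exons and 68.5, 64.4 and 58.8 CPM in DMSO and 57.9, 43 and 45 CPM in cisplatin in introns. SAT1, which acetylates polyamines, had 33.1, 28.3 and 25.9 CPM in DMSO and 23.8, 23 and 23.3 CPM in cisplatin in exons, and PPIL3, a cyclophilin of the spliceosome, had 24.1, 27.9 and 22 CPM in DMSO and 18, 19.2 and 19.9 CPM in cisplatin. All 3 genes were lower in every cisplatin library in both layers. Their log2 changes in exons and introns were −0.46 and −0.39 for ELOVL6, −0.31 and −0.29 for SAT1, and −0.37 and −0.26 for PPIL3. The 3 genes with opposite directions were PFDN2, COA8 and ADAMTS1, all of which are named. PFDN2, a subunit of prefoldin, differed by −0.16 in exons and 0.59 in introns, and ADAMTS1, a matrix protease, by 0.14 and −0.41. COA8, an assembly factor of complex IV, differed by −0.19 in exons and 0.47 in introns.

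Among genes with a mean of at least 50 counts, the largest exon differences were in lowly counted genes. MAP1A, a microtubule protein, had 2.1, 2.12 and 2.96 CPM in DMSO and 4.21, 3.4 and 3.78 CPM in cisplatin. LRP4, a receptor at neuromuscular junctions, had 7.8, 6.55 and 10.2 CPM in DMSO and 12.2, 10.9 and 13.2 CPM in cisplatin. ZNF490, a zinc finger gene, had 4.16, 4.21 and 4.94 CPM in DMSO and 7.16, 6.18 and 6.23 CPM in cisplatin. All 3 were higher in every cisplatin library, with log2 changes of 0.62 ± 0.15, 0.53 ± 0.13 and 0.55 ± 0.14. DENND2C (0.71), SYT14 (0.67), CPEB4 (0.64), ZC3H12B (0.55) and KIF4B (0.54), a copy of KIF4A and so uncertain, were the other 5 of the 8 with the largest log2 changes upward. MMP10, a secreted matrix protease, had 3.76, 3.26 and 2.98 CPM in DMSO and 2.76, 1.92 and 1.98 CPM in cisplatin. It was lower in every cisplatin library, by −0.57 ± 0.19, and RNF207 and PIERCE2 differed by −0.59 and −0.52. SPIN2B (−0.80) shares reads with SPIN2A, and ENSG00000274276 and ENSG00000280071, annotated as copies of CBS and of GATD3A, are equally uncertain. The first of these had 1.7, 13.6 and 1.67 CPM in DMSO, where only replicate 2 was high, and 0.872, 0.981 and 1.27 CPM in cisplatin, and the second differed by −0.83. In introns the other large differences were higher MLEC (0.83) and ZNF579 (0.87) and lower POLR2F (−0.69), CCDC107 (−0.67) and BOLA1 (−0.63).

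The 24 h libraries, which share no sample with those at 72 h, gave other values for the same groups. At 24 h 0 genes passed the adjusted threshold in exon counts by edgeR's quasi-likelihood test or by DESeq2, with 261 (2.48%) past the unadjusted one. The median log2 change at 24 h was 0.01 for replication genes, −0.02 for Fanconi anemia and recombination genes and 0.05 for cytosolic ribosomal proteins, against 0.11, 0.08 and −0.12 at 72 h. In the test of the difference between the 72 h and 24 h effects, 0 genes passed the adjusted threshold in exon counts by edgeR or DESeq2, and 976 (9.27%) passed the unadjusted one, 507 (4.82%) upward and 469 (4.45%) downward. Of the 39 replication genes, 9 passed upward and 0 downward, and of the 80 ribosomal protein genes 0 upward and 31 downward. Transcript length went with the change in opposite directions at the 2 times (rho 0.389 at 72 h and −0.166 at 24 h). With the length offset 734 genes passed the unadjusted threshold for this difference, 352 upward and 382 downward. For this difference the lists were not counted with the length offset or with a library left out. MCM10 had a log2 change of 0.02 ± 0.07 at 24 h, and RPL26 one of 0.04 ± 0.06. In intron counts 3 genes (0.0325%) passed the adjusted threshold for this difference and 537 (5.81%) the unadjusted one.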

How the data were processed

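The authors sequenced poly(A) RNA from directional libraries as paired reads and checked them with FastQC 0.11.8. They trimmed them with Trim Galore 0.6.0 and aligned them to GRCh38 with HISAT2 2.1.0. The deposited counts are whole fragments per gene, made with HTSeq-count in separate exon and intron annotations of Ensembl release 98, neither normalized nor pooled. The strand option is not given in the sources used here, so overlapping and antisense genes are uncertain. Of the genes named these are BOLA1, CCDC107, CHAF1A, COA8, FANCD2, FANCI, HSPG2, LAMA5, LRRC8A, MCM7, NDUFB2, PIERCE2, POLH, POLR2F, RAD50, RAD54L, RNF207, RPS27A, RPS3A, SRRM2, ZC3H12B and ZNF490. Their own test, a logistic regression of exon against intron counts, was not run here.

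Symbols and lengths came from GENCODE release 44, which matched 17485 of 17508 identifiers. The length of a gene is that of its longest transcript. Counts were tested with edgeR 4.0.16 (R 4.3.3) in a single fit of all 12 libraries, with TMM scaling and Benjamini-Hochberg adjustment over all genes tested, and the test was checked on simulated counts. CPM are counts scaled to the TMM-adjusted size of their library. Values for lists and permutation tests used Python 3.11.15, pandas 2.3.3 and scipy 1.17.1. The length offset was a lowess curve of span 0.3 for each library. The alternatives were DESeq2 1.42.0 and its size factors, upper quartile and total scaling, exon scaling of introns, other filters, counts thinned to equal depth, the 6 libraries alone, a replicate block and each library left out.

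Named genes were those with an adjusted p under 0.05. To these were added the 8 largest exon and 5 largest intron changes each way without overlap, and the 6 largest shared changes each way. In each list the 4 members with the smallest p and the member with the most exon counts were also taken, and not every gene these rules select is named. The members and the 45 gene lists were chosen with earlier results of these data known.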

Additional observations from a re-analysis of the deposited data

Results flagged for a closer look

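In 3 genes the effect of cisplatin on intron counts differed between 72 h and 24 h by the test of that difference. For RPS19 the log2 change at 72 h exceeded that at 24 h by 0.79, with an adjusted p of 0.0311 (edgeR quasi-likelihood test, Benjamini-Hochberg), since it was 0.81 at 72 h and 0.03 at 24 h. For TMEM237 the difference was −0.79, with an adjusted p of 0.0311 (edgeR quasi-likelihood test, Benjamini-Hochberg), from −0.62 at 72 h and 0.17 at 24 h. For EIF3C, which shares reads with a near-identical copy, it was −1.80, with an adjusted p of 0.0311 (edgeR quasi-likelihood test, Benjamini-Hochberg), from −1.13 at 72 h and 0.67 at 24 h. DESeq2 called 0 genes for this difference, edgeR's quasi-likelihood test called 0 with the scaling of the exon libraries and 1 with library totals, and 537 passed an unadjusted p under 0.05 in edgeR.

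The count of 3 rested on single libraries. It was 6 without cisplatin replicate 2 at 24 h, and 1 without cisplatin replicate 1 or DMSO replicate 2 at 24 h. It was 0 by edgeR's quasi-likelihood test without cisplatin replicate 3, DMSO replicate 1 or DMSO replicate 3 at 24 h, or without cisplatin replicate 2, cisplatin replicate 3, DMSO replicate 1 or DMSO replicate 2 at 72 h. With 1 library left out, the adjusted p of RPS19 ranged from 0.0269 to 0.367, that of TMEM237 from 0.00433 to 0.369 and that of EIF3C from 0.000671 to 0.405 (edgeR quasi-likelihood test, Benjamini-Hochberg).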

How the results depend on the processing

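The directions of the named genes held under nearly all settings: of 99 log2 changes, 2 reversed in at least 1 setting, 6 times in all. RAD50 in exon counts, −0.01 with TMM, came to 0.011 with library totals and −0.0621 to 0.0366 with 1 library left out, above 0 without cisplatin replicate 2, DMSO replicate 2 or DMSO replicate 3 at 72 h. RPS19 in exon counts came to 0.00700 with the transcript length offset and −0.0893 to 0.0275 with 1 library left out, above 0 without cisplatin replicate 1 at 72 h. Sign changes of list medians were counted for lists with at least 3 genes tested. Of these medians beyond 0.05, 9 of 967 values in 6 of 43 results changed sign, all in intron counts. With the medians nearer 0 included, 124 of 1912 values in 40 of 85 results changed sign. Immune and fibroblast markers, with 2 genes each in exon counts, are outside this count, and their exon medians changed sign without DMSO replicate 2 and DMSO replicate 1 respectively. The 3 adjusted exon calls at 72 h became 80 with DESeq2, 91 with no filter on low counts, 1 with libraries thinned to the smallest depth, and 0 to 74 with 1 library left out. The 8 intron calls became 1 with DESeq2, 4 with edgeR's own filter, 5 with the length offset (an alternative chosen after seeing the data), 19 with no filter, 13 with library totals, 27 with the 6 libraries at 72 h alone, 3 with thinned libraries, and 4 to 12 with 1 library left out. For the difference between 72 h and 24 h, the 0 exon calls of edgeR (976 unadjusted, 0 with DESeq2) became 5 with no filter and 0 to 1 with 1 library left out. The 3 intron calls became 0 with DESeq2, 0 with the scaling of the exon libraries, 1 with library totals, 11 with no filter and 0 to 6 with 1 library left out. With library totals, 918 genes lay wholly above and 401 wholly below DMSO in intron counts. The cause of these shifts was not tested.

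The labels do not say whether replicate numbers pair the samples, and with 3 libraries in each group the counts cannot settle it. The correlations of same-numbered libraries' deviations in exon counts were −0.03, 0.05 and 0.00. When the block term for replicate number was added, the exon calls at 72 h were 2 and the intron calls 5, and for the difference between times they were 0 and 3.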

Other observations

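Several other groups were lower or near the background in exon counts. Of 15 core histone genes, 0 were higher and 5 lower at an unadjusted p under 0.05, with a median log2 change of −0.10, and 8 lay wholly below DMSO. The lower count was 2 without DMSO replicate 1, 3 without cisplatin replicate 1 and 2 with the length offset. Of 40 proteasome genes 2 were higher and 5 lower, with a median of −0.07 that was −0.02 with the length offset, and the lower count was 13 without DMSO replicate 3, 8 without cisplatin replicate 2 and 2 without DMSO replicate 1 or DMSO replicate 2. Of 36 cytosolic chaperones 0 were higher and 4 lower (2 without cisplatin replicate 3), with a median of −0.04 in exons and −0.10 in introns. DNAJA1, a partner of HSP70, had 311, 278 and 264 CPM in DMSO and 253, 239 and 248 CPM in cisplatin, a log2 change of −0.20 ± 0.06. Of 27 NF-kB and senescence-associated secretory genes 1 was higher and 2 lower (5 lower without DMSO replicate 3, 1 without DMSO replicate 1 or cisplatin replicate 3, and 0 higher with any library but cisplatin replicate 3 left out), and of 27 RNA polymerase subunits 2 were higher and 2 lower (1 and 1 without DMSO replicate 2, 1 higher without DMSO replicate 1 or cisplatin replicate 3).

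Lipid synthesis and zinc finger lists had small medians. Of 31 genes of cholesterol and fatty acid synthesis 4 were higher and 1 lower, with a median of 0.03, against 688 (6.53%) and 621 (5.9%) of all genes, the lower one being ELOVL6. The higher count was 0 without DMSO replicate 2 and 1 without cisplatin replicate 1 or cisplatin replicate 3. Of 144 zinc finger genes on chromosome 19, 9 were higher, a share near that of all genes, and 1 lower, with a median of 0.03. The 9 became 4 without DMSO replicate 2 or without cisplatin replicate 1. Mitotic promoters held the letters TTTGAA or TTCGAA on either strand in 30 of 40 genes (75%), against 16.4% of all promoters, and CCAAT on either strand in 31 of 40 (77.5%), against 34.6%.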
